A study of Homo sapiens with 12 samples.

Results

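The response to mithramycin was compared between 2 established human Ewing sarcoma cell lines, TC32 and TC71. For each gene the line difference is the effect in TC71 (mithramycin minus solvent control, log2) minus the effect in TC32. The description covers 7759 of 19740 tested genes, those with a mean of at least 6 on the log2 scale in the controls of both lines. They are called expressed genes below, each represented by the probe set of highest mean over the 12 arrays. Solvent controls are also called untreated below. The 4 groups were TC32 with solvent, TC32 with 100 nM mithramycin, TC71 with solvent and TC71 with 100 nM mithramycin, each for 6 h after the plated cells had rested overnight. Each group had 3 biological replicates with an array each, a number that limits how precise any value here can be. The sample titles marked the controls S in TC32 and C in TC71, and the source names of both said control. Each line is a single cell line, so a difference between the lines cannot be told apart from any other way in which these cultures differed.

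Mithramycin is an antibiotic that settles into the minor groove of GC-rich DNA and can displace transcription factors of the Sp family from their sites. After a short exposure, messenger RNAs that decay quickly follow transcription most closely, whereas stable ones change little whatever happens at their genes. Ewing sarcoma cells depend on a fusion of EWSR1 and FLI1 that acts as an aberrant transcription factor, switching some genes on and others off. The comparison asks which genes answered the drug differently in the 2 lines. A positive line difference arises when a gene fell less, rose more or rose instead of falling in TC71, and a negative one when the reverse held, so the effect in each line is given beside it. Most genes described were chosen by their line difference on these 12 arrays, so those values are a description without a p. A p is given only for genes named for prior interest in the drug or the tumour.

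The cells showed the transcripts of their labels. Of 9 Ewing sarcoma identity genes measured, including FLI1, CD99, NKX2-2 and STEAP1, 8 stood above the array medians in TC32 and 9 in TC71, with PAX7 below the median in TC32. Of the markers of other cells, those above the array medians in the 4 groups were 7 to 10 of 14 for neural and glial cells, 6 to 8 of 12 for fibroblasts, 4 to 5 of 12 for epithelial cells, 2 to 4 of 9 for blood cells and 1 to 4 of 10 for endothelial cells. The mean level of the fibroblast markers went from between 5.44 and 5.53 to between 5.56 and 5.61 with mithramycin in TC32 and from between 5.14 and 5.19 to between 5.36 and 5.39 in TC71, and its part in the line difference was not tested. In such bulk samples, fewer cells of a kind and less RNA per cell cannot be told apart. Within each group the correlation between arrays over the probe sets was at least 0.9948. The interquartile range of the values was lower with mithramycin, at 3.07 to 3.20 against 3.29 to 3.35 in TC32 and at 3.21 to 3.32 against 3.38 to 3.42 in TC71. The beta-actin 3' minus 5' signal, which grows as RNA degrades, was higher on all TC71 controls (1.08, 1.28 and, on replicate 1, 2.0) than on the treated TC71 arrays (0.79 to 0.99). In TC32 it was 0.67 to 0.74 without and 0.51 to 0.67 with the drug, so this sign of RNA quality moved with the line difference, and its part was not tested beyond the fits given beside the counts. The same signal of GAPDH lay between 0.048 and 0.14 on all arrays.

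Most expressed genes had no called line difference. With the values as deposited, the largest class of called genes fell in both lines and further in TC32. A gene without a call cannot be read as alike in both lines. In simulated data over all genes tested, with the spread of these arrays, 35% of differences of 0.5 and 94% of differences of 1 were recovered. The line difference had a median of -0.01, and the middle 90% of genes lay between -0.32 and 0.48, against a median standard error of 0.09. It was called at a limma adjusted p under 0.05 for 1126 expressed genes (14.5%), of which 781 were positive (10.1%) and 345 negative (4.45%). Over all 19740 genes 1973 were called (9.99%). A difference of at least 2-fold was called for 53 expressed genes (0.683%), 42 positive (0.541%) and 11 negative (0.142%). The effect in TC32 itself was called for 65.5% of expressed genes (30% higher and 35.5% lower) and that in TC71 for 55.8% (25.8% higher and 30% lower). At least 2-fold lower were 470 genes in TC32 (6.06%) and 347 in TC71 (4.47%), and at least 2-fold higher were 30 (0.387%) and 21 (0.271%).

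The number of calls and their balance depended on how the arrays were put on 1 scale. Positive differences made up 69.4% of the called expressed genes as deposited, 53.7% (681 positive and 586 negative) with quantile normalization run again on the probe set values, and 97.6% (1387 positive and 34 negative) with arrays centred on the spiked hybridization controls. That last centring raised every line difference by 0.24, since those controls were higher with mithramycin by 0.15 in TC32 and lower by -0.08 in TC71. A fit that took the beta-actin 3' minus 5' signal as a covariate called 635 expressed genes, and without TC71 control replicate 1 there were 807, of which 792 were among the 1126. The counts of at least 2-fold differences were 49 and 51 in those fits. Leaving out any other TC71 array gave a similar number of expressed calls, 810 to 860, so 807 was not particular to that replicate. In a fit that weighted arrays by their scatter, the lowest weights fell on treated TC32 replicates 2 (0.375) and 1 (0.562). Without treated TC32 replicate 2 there were 1169 expressed calls.

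The called genes took several shapes. The largest class, 324 genes or 28.8% of the calls, fell in both lines and further in TC32, with median changes of -1.04 in TC32 and -0.48 in TC71. A further 257 genes fell in TC32 and were not called in TC71. Those that fell in both lines and further in TC71 numbered 136, with medians of -0.64 and -1.14, and 54 fell in TC71 without a call in TC32. Larger rises were seen in TC32 for 79 genes (medians 0.70 and 0.33) and in TC71 for 32 (0.31 and 0.73), while 66 rose with a call in TC32 alone and 87 with a call in TC71 alone. Opposite responses were the exception: 79 genes fell in TC32 and rose in TC71, and 10 did the reverse. Large falls had a similar typical size in both lines. Over the 375 expressed genes whose mean effect was -1 or below, the median fall was -1.37 in TC32 and -1.29 in TC71, yet 88 of them had a called positive and 59 a called negative difference.

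**Figure D1:**
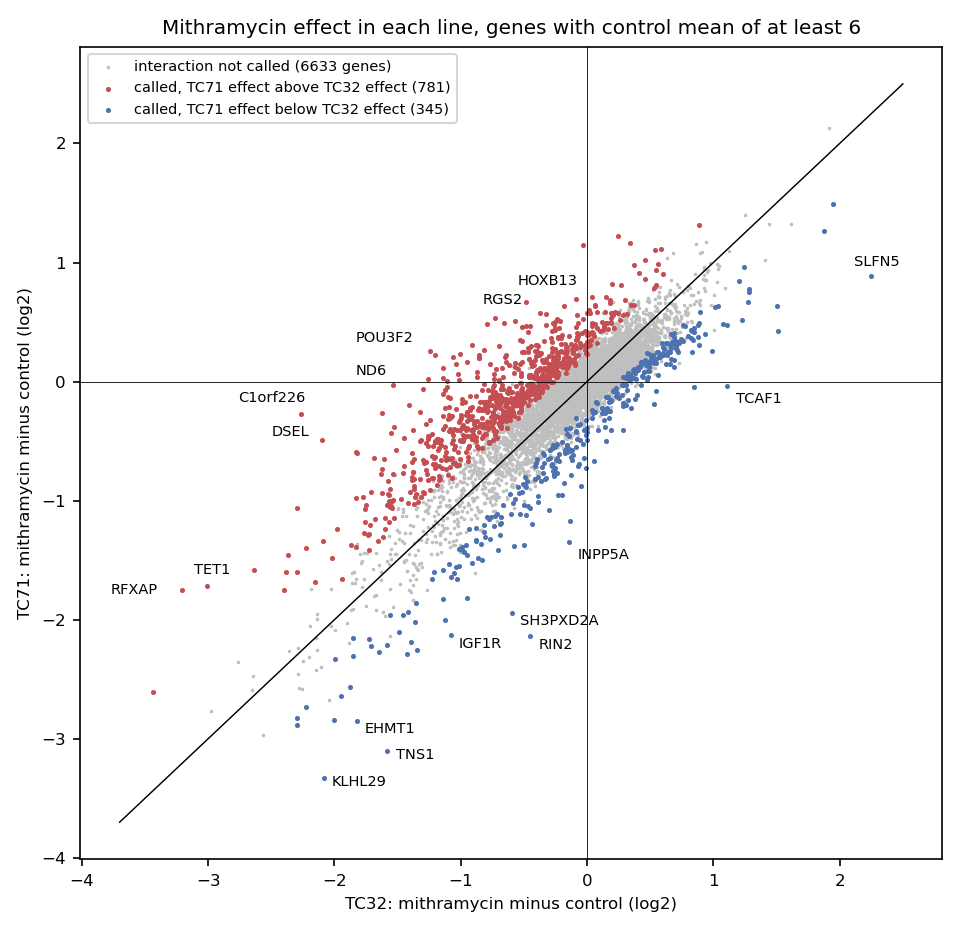
Each point is an expressed gene, placed by its mithramycin effect in TC32 (x, log2) and in TC71 (y, log2), with the diagonal marking equal effects. Red points are the 781 genes with a called positive line difference, blue points the 345 with a called negative one, and most red points lie at the left, where TC32 fell further.

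Since mithramycin binds GC-rich DNA, the promoters of the called genes were described. A RefSeq promoter entry (assembly GRCh38.p14, from 250 bases before to 50 after the start) was matched for 6549 of the 7759 expressed genes. The median GC content was 65.3% in the 670 promoters of genes with a called positive difference, 66% in the 282 with a called negative one and 65.7% in the 5597 of genes not called. The letters GGGCGG, the core of the GC box that Sp factors recognize, or their reverse complement CCGCCC, counted wherever they occurred and also where copies overlapped, were present in 71.9%, 71.3% and 72.7% of these promoters, against 44.6% of all promoters in the table. Among calls of at least 2-fold, the 38 promoters of positive genes had a median of 64.3% with the letters in 68.4%, and the 7 of negative genes had a median of 79% with the letters in 85.7%. The bases before the start show what such promoters look like in genes that differed either way. The 250 bases are given for 3 genes with large differences, from 5' to 3' on the gene's own strand, with GGGCGG and CCGCCC in capitals. TNS1 lies at chr2:218010276-218010525 on the minus strand, SH3PXD2A at chr10:103855577-103855826 (minus) and DSEL at chr18:67516721-67516970 (minus).
TNS1: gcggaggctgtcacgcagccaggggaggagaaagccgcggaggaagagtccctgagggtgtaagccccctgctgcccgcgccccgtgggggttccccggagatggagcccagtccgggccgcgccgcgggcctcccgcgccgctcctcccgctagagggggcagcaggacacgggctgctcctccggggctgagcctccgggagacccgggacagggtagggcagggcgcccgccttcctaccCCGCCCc
SH3PXD2A: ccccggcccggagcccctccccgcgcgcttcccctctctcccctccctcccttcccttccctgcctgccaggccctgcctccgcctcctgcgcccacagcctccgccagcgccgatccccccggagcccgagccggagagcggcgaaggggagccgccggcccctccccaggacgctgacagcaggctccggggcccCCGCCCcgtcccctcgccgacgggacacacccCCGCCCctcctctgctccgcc
DSEL: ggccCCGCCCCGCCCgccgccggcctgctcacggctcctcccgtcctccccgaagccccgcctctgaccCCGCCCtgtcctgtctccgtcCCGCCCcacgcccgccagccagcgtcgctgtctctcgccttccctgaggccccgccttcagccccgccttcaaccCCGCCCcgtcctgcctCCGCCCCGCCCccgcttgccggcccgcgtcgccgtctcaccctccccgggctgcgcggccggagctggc
The stretch of DSEL, a gene with a large positive difference, had a GC content of 80% and 7 copies of these letters. TNS1 and SH3PXD2A, which differed the other way, had 76% with 1 copy and 79.6% with 2. All 3 stretches were thus richer in GC than the medians of 65.3% and 66% over all called genes of each direction. Those medians were taken over 300 bases, where TNS1, SH3PXD2A and DSEL had 75%, 79.3% and 79%. TNS1 lay below the median of 79% of the 7 negative genes of at least 2-fold.

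Among the 12 genes with the largest positive differences, most fell steeply in TC32 and little or not at all in TC71. C1orf226 stood at 6.65, 6.65 and 6.64 on the TC32 control arrays and at 4.23, 4.45 and 4.46 with mithramycin. In TC71 its controls were at 6.60, 6.49 and 6.54 and its treated arrays at 6.33, 6.16 and 6.31. Both lines thus began at the same level and only the treated TC32 arrays were far below, with effects of -2.27 ± 0.07 and -0.27 ± 0.07 and a line difference of 2.0 ± 0.10 (standard error of the model, n = 3 arrays per group here and below). The mean of its treated TC32 arrays, 4.38, lay below the median of all probe sets there, so the size of that fall is rough.

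DSEL, an enzyme related to the epimerase that makes dermatan sulfate, went from 8.11, 8.06 and 7.87 to 5.79, 6.17 and 5.78 in TC32 and from 7.55, 7.57 and 7.46 to 6.97, 7.14 and 7.0 in TC71. It fell in each line without overlap of the arrays, by 2.10 ± 0.10 and by 0.49 ± 0.10, a difference of 1.61 ± 0.15, and its other 2 probe sets were at 0.14 and 0.48. POU3F2, a POU-domain transcription factor of neural progenitors, went from 9.38, 9.39 and 9.33 to 8.07, 8.24 and 8.07 in TC32. In TC71 it rose slightly, from 8.06, 8.17 and 8.19 to 8.46, 8.42 and 8.33. The treated TC32 arrays therefore came down to the level of untreated TC71, and the line difference was 1.50 ± 0.09, with 0.89 at the other probe set. PLPP6, a lipid phosphatase, had the same shape, falling from 8.17, 8.14 and 8.13 to 6.89, 7.02 and 6.92 in TC32 and rising from 7.41, 7.51 and 7.56 to 7.81, 7.66 and 7.69 in TC71 (difference 1.43 ± 0.09).

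ND6, a subunit of respiratory complex I encoded by mitochondrial DNA, stood at 10.26, 10.14 and 10.23 in TC32 controls and at 8.94, 8.72 and 8.35 with mithramycin. Its TC71 arrays overlapped, at 8.75, 8.77 and 8.87 without and 8.89, 8.64 and 8.76 with the drug. The line difference was 1.51 ± 0.17. TRIM69, a RING-finger ubiquitin ligase, fell from 8.75, 8.72 and 8.80 to 7.09, 7.15 and 7.15 in TC32 and from 7.50, 7.54 and 7.63 to 7.40, 7.2 and 7.29 in TC71, a difference of 1.36 ± 0.09 that was not seen at its other 2, dimmer sets (-0.18 and 0.02). The set at -0.18, with control means of 5.50 in TC32 and 2.98 in TC71, rose by 1.03 and 0.85. The fall of TRIM69 was thus seen at 1 set. The zinc finger gene ZNF112 fell by 1.26 ± 0.11 in TC32, to between 5.50 and 5.90 from between 6.91 and 7.12, while its TC71 arrays overlapped between 6.51 and 6.81. SNHG4, a host gene of small nucleolar RNAs, fell from 6.23, 6.28 and 6.24 to 5.16, 5.18 and 5.23 in TC32 and rose in TC71 by 0.21 ± 0.07.

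In RFXAP and TET1 both lines fell steeply and the difference was one of degree. RFXAP, a subunit of the complex that drives MHC class II genes, went from 6.44, 6.58 and 6.34 to 2.96, 3.54 and 3.22 in TC32 and from 8.56, 8.83 and 8.51 to 6.93, 6.84 and 6.90 in TC71. The dioxygenase TET1, which oxidizes methylated cytosine in DNA, went from 6.85, 7.03 and 6.98 to 3.88, 3.92 and 4.02 in TC32 and from 7.29, 7.27 and 7.31 to 5.70, 5.59 and 5.43 in TC71. Their line differences were 1.46 ± 0.18 and 1.29 ± 0.11, with 0.19 and 0.26 at the other probe set of each. Treated TC32 arrays of both genes lay below the array medians, so the falls there are rough in size.

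Of the 12 genes with the largest negative differences, 9 fell further in TC71. RIN2, an exchange factor for the endosomal GTPase Rab5, stood at 8.65, 8.76 and 8.59 in TC32 controls and at 8.08, 8.38 and 8.18 with mithramycin. In TC71 it dropped from 5.96, 5.98 and 6.10 to 3.82, 3.91 and 3.90, below the array medians. The effects were -0.45 ± 0.08 and -2.14 ± 0.08 and the line difference -1.68 ± 0.11, while the other probe set of RIN2 was below the array medians in both controls. TNS1, a tensin that ties focal adhesions to the cytoskeleton, went from 6.66, 6.58 and 6.55 to 5.06, 4.94 and 5.05 in TC32 and from 8.72, 8.75 and 8.76 to 5.52, 5.64 and 5.77 in TC71. Untreated TC71 thus held far more TNS1 signal than untreated TC32, and the treated arrays of the lines lay closer together than the controls. Its line difference of -1.52 ± 0.10 was called in the same direction at 2 of its 4 other sets, which ranged from -1.04 to 0.04.

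SH3PXD2A, a scaffold of the actin-rich protrusions with which cells break down matrix, went from 8.10, 8.23 and 8.32 to 7.66, 7.54 and 7.66 in TC32 and from 8.65, 8.62 and 8.59 to 6.85, 6.91 and 6.28 in TC71 (difference -1.35 ± 0.19, with other sets at -1.24 and 0.28). INPP5A, a phosphatase that removes a phosphate from the second messenger inositol trisphosphate, had no called change in TC32, where its arrays went from 8.24, 8.38 and 8.20 to 8.07, 8.19 and 8.14. In TC71 it fell from 7.48, 7.38 and 7.55 to 6.26, 6.04 and 6.05, and the difference was -1.21 ± 0.11 (other set -0.37, not called). TAOK3, a kinase that feeds into MAP kinase cascades, had overlapping arrays in TC32 and fell in TC71, from 6.38, 6.31 and 6.29 to 5.39, 5.01 and 5.06, but its other, dimmer set was at 0.15. The TC71 effect of these 3 genes was between -1.94 and -1.17.

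IGF1R, the receptor for insulin-like growth factors on which Ewing sarcoma cells are known to rely, started at nearly the same level in both lines. Its controls stood at 8.55, 8.55 and 8.36 in TC32 and at 8.42, 8.42 and 8.41 in TC71, and its treated arrays at 7.31, 7.52 and 7.37 and at 6.29, 6.14 and 6.42. The treated arrays of the lines were therefore apart while the controls were not, and the line difference was -1.05 ± 0.12, called in the same direction at 2 of 4 other sets (range -0.80 to 0.05). SLC24A3, an exchanger of sodium, potassium and calcium, fell from 8.20, 8.0 and 8.22 to 6.75, 6.85 and 6.78 in TC32 and from 7.13, 7.11 and 7.26 to 4.99, 4.78 and 4.97 in TC71, with differences of -0.91 ± 0.11 and -1.12 at its 2 sets. For KLHL29, a kelch-like protein, and EHMT1, a histone H3 methyltransferase of silent chromatin, the brightest sets differed by -1.24 ± 0.10 and -1.03 ± 0.15. Their other sets had control means of 3.26 to 4.43 and 3.64 to 4.72, near the array medians, where falls of that size could not be read. The 2 other sets of EHMT1 had effects of -0.81 and -1.07 in TC32 and of -0.49 and -0.58 in TC71. Their differences of 0.32 and 0.49 were opposite in sign and not called. The other sets of KLHL29, at -0.05 to 0.39, were not called either, so the line difference of each gene was called at 1 probe set.

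The other 3 genes with large negative differences rose further in TC32. SLFN5, a schlafen family gene induced by interferon, went from 6.59, 6.24 and 6.32 to 8.50, 8.67 and 8.72 in TC32 and from 7.28, 7.18 and 7.17 to 8.04, 8.06 and 8.18 in TC71. NUDT17, a Nudix hydrolase, went from 6.2, 6.27 and 6.31 to 7.87, 7.68 and 7.75 in TC32 and from 6.95, 6.90 and 7.0 to 7.37, 7.32 and 7.45 in TC71. In each case TC32 began lower and ended higher, with line differences of -1.37 ± 0.13 and -1.08 ± 0.09. TCAF1, a partner of the cold-sensing channel TRPM8, rose by 1.11 ± 0.18 in TC32, where its arrays were the most scattered of these genes (7.13, 7.35 and 6.74 against 7.85, 8.60 and 8.10), and its TC71 arrays overlapped between 8.94 and 9.22. Its call ended with the beta-actin covariate at an unchanged difference of -1.14.

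**Figure D2:**
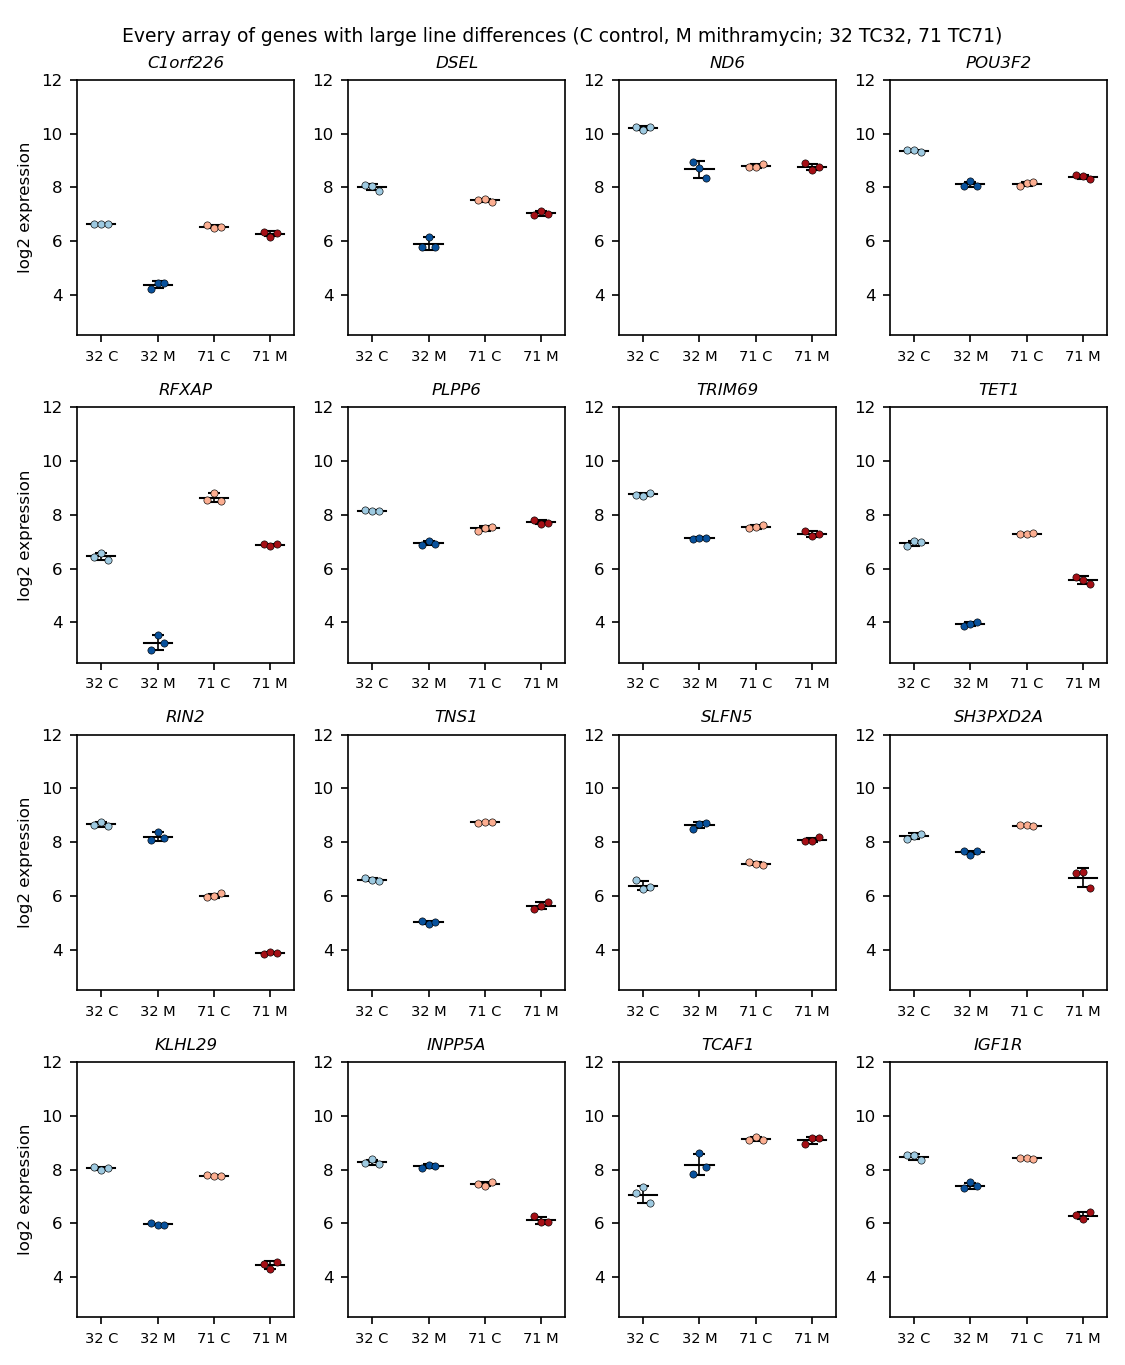
Log2 expression on every array for 16 genes with large line differences, 8 positive (upper rows) and 8 negative (lower rows), with 3 arrays per group and bars for the mean and SD. In C1orf226 and DSEL the treated TC32 arrays alone lie far below, whereas in RIN2, INPP5A and IGF1R the treated TC71 arrays fall furthest.

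Genes that moved in opposite directions mostly fell in TC32 and rose in TC71, and the clearest of them stood much higher in untreated TC32. RGS2, which damps signalling through G proteins, went from 10.41, 10.50 and 10.40 to 9.70, 9.68 and 9.74 in TC32 and from 8.09, 8.02 and 7.98 to 8.58, 8.52 and 8.59 in TC71. SGK1, a kinase induced by serum and glucocorticoids, went from 11.49, 11.46 and 11.52 to 10.95, 10.91 and 10.90 and from 8.87, 9.01 and 8.96 to 9.52, 9.39 and 9.45. The gap between the untreated lines was -2.41 (RGS2) and -2.54 (SGK1), and the line differences were 1.26 ± 0.07 and 1.08 ± 0.08. A narrower gap under the drug follows by arithmetic from choosing opposite effects in genes that started higher in TC32. DLX2, a homeobox factor of the forebrain and the branchial arches, fell from 9.95, 9.97 and 9.94 to 9.10, 9.25 and 9.12 and rose from 6.34, 6.2 and 6.41 to 6.83, 6.88 and 6.69, a difference of 1.28 ± 0.10 (0.60 at the other set).

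HOXB13, a posterior homeobox gene, fell from 9.10, 9.23 and 9.16 to 8.75, 8.64 and 8.65 in TC32 and rose from 7.28, 7.32 and 7.51 to 8.01, 8.0 and 8.11 in TC71 (difference 1.15 ± 0.10). Its other set differed by 0.83, with effects of -0.97 and -0.14, so the rise in TC71 was seen at 1 set. TAF1D, a subunit of the selectivity factor that brings RNA polymerase I to ribosomal DNA, fell from 8.43, 8.22 and 8.20 to 7.61, 7.68 and 7.58 and rose from 6.17, 6.4 and 6.29 to 6.95, 6.57 and 6.82 (1.15 ± 0.14). In all 5 of these genes the arrays of each line lay apart between control and drug. KIAA1586, with 6.52, 6.80 and 6.49 against 5.79, 6.39 and 6.18 in TC32 and 6.03, 6.08 and 5.93 against 6.49, 6.45 and 6.49 in TC71, was the most scattered of the 6 opposite genes named by the size of their smaller effect. The array values of RGS2, SGK1, DLX2, HOXB13 and TAF1D in the control groups share arrays with the line difference, so the control gap is given only beside it.

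**Figure D3:**
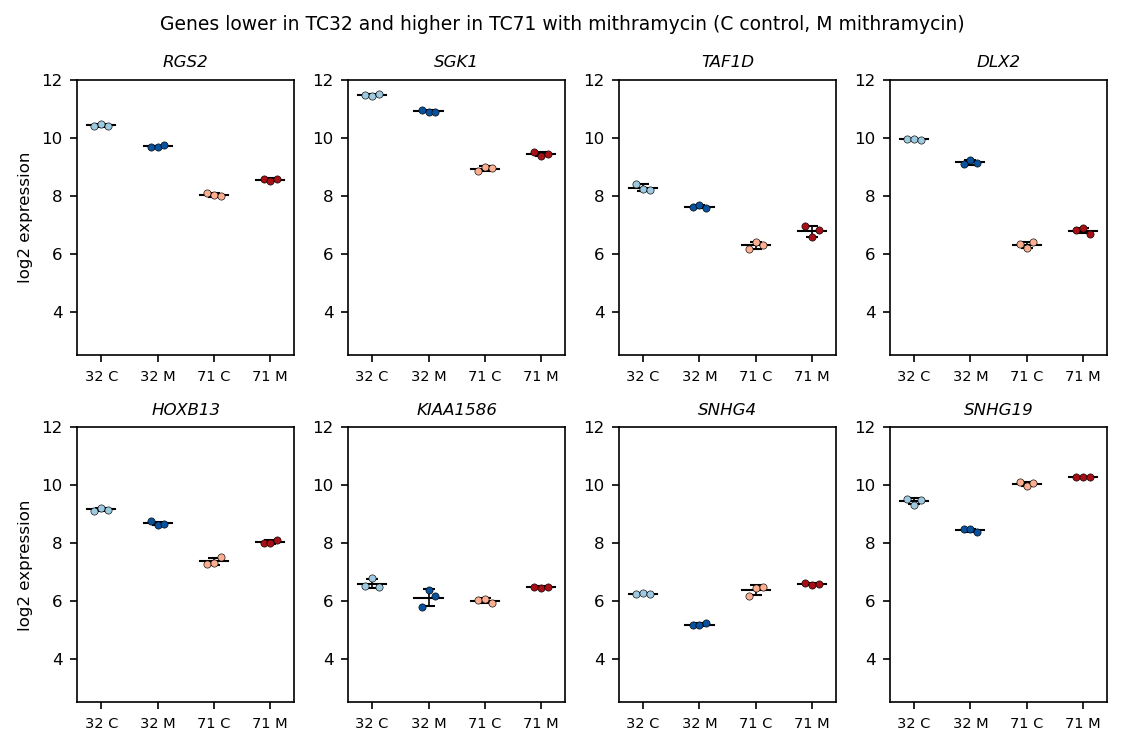
Log2 expression on every array for the 6 opposite genes and for the snoRNA host genes SNHG4 and SNHG19, with 3 arrays per group and bars for the mean and SD. In RGS2, SGK1, TAF1D, DLX2 and HOXB13 the TC32 arrays come down and the TC71 arrays go up from a lower start.

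Gene lists of known function, chosen with earlier results of these data in view, were read by the count of expressed members called and by their median, beside 10.1% called positive, 4.45% called negative and a median of -0.01 over all expressed genes. Immediate early genes, which growth signals induce within minutes and whose messages decay fast, had the highest median at 0.35. Of 19 expressed members 10 were called positive and 1 negative. In TC32, 8 of the 19 rose and 8 fell, and in TC71 12 rose and 3 fell. Besides RGS2 and SGK1, the AP-1 subunit FOSL2 went from 7.94, 8.03 and 7.77 to 6.86, 7.04 and 6.80 in TC32 and stayed between 6.61 and 6.70 in TC71, a difference of 1.03 ± 0.11. BTG1, an antiproliferative gene, rose in both lines, by 0.24 ± 0.06 and 1.23 ± 0.06, from 9.0, 9.11 and 9.02 to 9.21, 9.39 and 9.25 in TC32 and from 8.09, 8.21 and 8.09 to 9.36, 9.37 and 9.33 in TC71. Its difference was 0.98 at this set and 1.05 at the other bright one. IER3, an early response gene of cell survival, rose by 0.34 and 1.16, and IER5 by 0.54 and 1.11. The exception was TOB1, a relative of BTG1, which rose further in TC32 (1.95 against 1.49), a call that ended 8 times when each of the 12 arrays was left out in turn. With quantile normalization run again the list kept 10 positive calls and 1 negative call, and with the beta-actin covariate it had 9 and 0.

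Developmental transcription factors of the SOX, homeobox and T-box families also differed often. Of 20 expressed members, 9 were called positive and 2 negative, with a median of 0.22, and the counts were the same under the beta-actin covariate and without TC71 control replicate 1. In TC32 all 20 fell, and in TC71 12 fell and 5 rose. TBX3, a T-box repressor of limb and heart development, fell from 8.79, 8.82 and 8.80 to 8.28, 8.54 and 8.20 in TC32 and rose from 7.02, 7.06 and 7.08 to 7.51, 7.39 and 7.52 in TC71. NKX2-2, a homeobox repressor that EWSR1-FLI1 needs for transformation, fell from 9.03, 9.01 and 9.07 to 8.45, 8.37 and 8.37 and rose from 7.14, 7.08 and 7.10 to 7.39, 7.24 and 7.2. Both thus followed the pattern of DLX2, with line differences of 0.88 ± 0.11 and 0.81 ± 0.08. SOX4, a factor of progenitor cells, moved by -0.24 and 0.53, HOXD13 by -0.39 and 0.30, and HOXD11 by -1.08 with no call in TC71 (-0.14). MEIS1 and PBX3 encode cofactors of HOX proteins and went opposite ways. MEIS1 fell further in TC32 (-2.38 against -1.60), whereas PBX3 fell from 6.32, 6.31 and 6.12 to 5.64, 5.69 and 5.93 in TC32 and from 7.06, 7.18 and 7.25 to 5.77, 5.80 and 5.79 in TC71 (difference -0.88 ± 0.12).

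Among targets that EWSR1-FLI1 is known to activate, calls went both ways. Of 31 expressed members 6 were called positive and 5 negative, with a median of -0.09. CCND1, the G1 cyclin D1, went from 11.40, 11.34 and 11.49 to 11.24, 11.18 and 11.12 in TC32 and from 10.58, 10.60 and 10.63 to 9.70, 9.63 and 9.61 in TC71. It fell in each line but more in TC71, by 0.95 ± 0.06 against 0.23 ± 0.06. ID2, which blocks DNA binding by helix-loop-helix factors, went the other way, from 12.04, 12.12 and 12.05 to 11.76, 11.85 and 11.78 in TC32 and from 11.08, 11.25 and 11.06 to 11.50, 11.60 and 11.56 in TC71 (difference 0.70 ± 0.09). The neuropeptide receptor NPY1R fell by 0.46 and rose by 0.19, and SOX2, a pluripotency factor, fell by 0.86 and 0.22. JARID2, a partner of Polycomb repressive complexes, and PAPPA, a protease of IGF-binding proteins, fell further in TC71, with effects of -1.93 and -2.89 against -1.42 and -2.29 in TC32. The difference of PAPPA lost its call in 6 of the 12 fits without 1 array, and its sets disagreed, with called values from -0.60 to 1.51. With the beta-actin covariate the list had 6 positive calls and 2 negative ones.

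Targets that the fusion represses had 3 positive calls and 0 negative ones among 10 expressed members, with a median of 0.18 and with 1 call under the beta-actin covariate. CCN1, a matricellular protein and target of YAP, had overlapping TC32 arrays (9.92, 9.68 and 9.53 against 9.63, 9.81 and 9.60) and rose in TC71 from 7.30, 7.21 and 7.32 to 8.43, 8.38 and 8.46. Its line difference was 1.18 ± 0.13 at each of its 2 probe sets. At their brightest sets the matrix genes FN1 (0.39) and COL3A1 (0.33) had smaller differences. These calls ended 8 and 10 times as each of the 12 arrays was left out. Of the 6 other sets of FN1, 4 were called in the same direction (range -0.44 to 1.72). For COL3A1 it was 1 of 4 (range -0.02 to 1.66), so the size differed between sets. EWSR1 arrays overlapped in each line, and its line difference was -0.19 ± 0.09 (limma adjusted p = 0.252). FLI1 fell by 0.70 ± 0.10 in TC32 and was at -0.27 ± 0.10 in TC71, which was not called, and the difference of 0.43 ± 0.15 at its brightest set was not called either (limma adjusted p = 0.0921). At 2 other sets of FLI1, with control means from 6.4 to 7.28, it was 0.67 and 0.69 and was called.

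Signalling pathways of development held calls in both directions. In the Wnt pathway 5 of 13 expressed members were called positive and 1 negative (median 0.13). The frizzled receptor FZD4 fell from 7.34, 7.24 and 7.27 to 6.54, 6.10 and 6.37 in TC32 and had no called change in TC71, where it went from 6.66, 6.72 and 6.76 to 6.92, 6.82 and 6.90, its other set being below the array medians. At their brightest sets FZD1 fell by 0.95 and 0.25 and the corepressor TLE3 by 1.39 and 0.68, whereas FZD7 rose further in TC32 (0.82 against 0.37). Another set was called in the same direction in 1 of 2 for FZD1 and 1 of 3 for TLE3. The remaining set of FZD1 rose in both lines, by 0.76 and 0.93, and those of TLE3 had differences of 0.24 and 0.15 that were not called. In the Notch pathway 2 of 10 were positive and 1 negative. The ligand JAG1 fell by 0.93 ± 0.07 in TC32 and was at -0.12 in TC71, which was not called. The target HEY1 went from 8.83, 8.94 and 8.93 to 8.69, 8.77 and 8.70 in TC32 and from 9.63, 9.58 and 9.66 to 10.30, 10.20 and 10.27 in TC71, so that it fell slightly in 1 line and rose in the other. In the TGF-beta and BMP pathway 4 of 23 were positive and 1 negative. BAMBI, a decoy receptor that blocks these signals, fell from 9.30, 9.11 and 9.27 to 8.73, 8.80 and 8.80 and rose from 7.86, 7.82 and 7.88 to 8.36, 8.28 and 8.33 (0.92 ± 0.08). ID1, a BMP target, rose by 0.40 in TC32 and had no called change in TC71 (-0.11), and ID3 fell by 1.15 and 0.73. In IGF and PI3K signalling 0 of 16 were positive and 3 negative, namely IGF1R, IGF2R (-0.33) and FOXO3. The call of IGF2R ended 9 times in the 12 fits without 1 array. At its brightest set FOXO3 had no called change in TC32 and fell by 0.42 in TC71. Its 2 other sets above the limit of 6 had effects of -0.40 and -0.28 in TC32 and of -0.52 and -0.51 in TC71. Their differences of -0.12 and -0.24 were not called. Under the beta-actin covariate the positive and negative calls were 3 and 1 in the Wnt list, 2 and 0 in Notch, 4 and 1 in TGF-beta and BMP, and 0 and 2 in IGF and PI3K, and in the last list hybridization centring gave 2 and 1.

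Among cell cycle genes, all called G2/M members were positive. Of 30 expressed members 8 were called positive and 0 negative with a median of 0.14, and 5 were called with the beta-actin covariate. By line, 21 fell in TC32 and 12 in TC71. PLK4, the kinase that starts centriole duplication, fell from 7.41, 7.49 and 7.47 to 6.88, 6.87 and 6.87 in TC32, and its TC71 arrays overlapped between 7.83 and 8.06. TTK, a kinase of the spindle checkpoint, fell by 0.80 and 0.20, and WEE1, which restrains entry into mitosis, by 0.79 and 0.26. AURKA fell by 0.80 and 0.38. DNA replication genes had 1 call in 27, CDT1 (0.32), which licenses origins and lost its call in 9 of the 12 fits without 1 array. Among p53 targets 1 of 15 was positive and 3 were negative, and 0 and 1 with the beta-actin covariate. CDKN1A, the kinase inhibitor p21, rose in both lines and further in TC32, from 7.26, 7.13 and 7.18 to 8.12, 8.03 and 8.06 against 6.39, 6.31 and 6.18 to 6.79, 6.80 and 6.73 (difference -0.40 ± 0.09, limma adjusted p = 0.0132, a call that ended with the beta-actin covariate). XPC, a damage sensor of nucleotide excision repair, rose by 0.66 and 0.25.

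Machinery of transcription, chromatin, stress and survival held scattered calls. HEXIM1, the inhibitor of the elongation factor P-TEFb, rose from 8.22, 8.36 and 8.16 to 9.71, 9.83 and 9.71 in TC32 and from 9.28, 9.27 and 9.10 to 9.82, 9.87 and 9.87 in TC71, so that both lines reached similar levels from different starts. Its difference was -0.87 ± 0.10, and -1.14 at the other set above the array medians. In the same list the P-TEFb cyclin CCNT2 fell by 1.26 and 0.45 and the effects in MLLT3, a subunit of the super elongation complex, were -1.82 and -0.97. In all, 5 of 21 members were positive and 1 negative, and 2 and 1 with the beta-actin covariate. RNA polymerase I and nucleolar genes had 4 positive calls in 22 (POLR1B 0.43, POLR1E 0.42, POLR1D 0.28 and TAF1D), with 0.52, 0.03 and -0.08 at the other sets of POLR1B. In histone lysine methylation 3 of 32 were positive and 3 negative, among them the demethylase KDM4B, which fell by 1.71 and 2.22. Among acetylation genes the class IIa deacetylase HDAC4 fell by 3.43 ± 0.15 and 2.61 ± 0.15. The difference of 0.82 ± 0.22 lost its call in 9 of the 12 fits without 1 array. Its treated means, 4.48 in TC32 and 4.14 in TC71, lay near and below the array medians, so both falls and their difference are rough in size.

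The integrated stress response had 4 positive and 2 negative calls in 20 expressed genes. ATF4, its main transcription factor, fell from 11.23, 11.23 and 11.33 to 10.19, 10.14 and 10.20 in TC32 and from 11.53, 11.50 and 11.54 to 10.95, 10.83 and 10.84 in TC71. The difference of 0.44 ± 0.08 was called (limma adjusted p = 0.00304). CEBPB, a partner of ATF4, fell by 1.01 and 0.34 and the pseudokinase TRIB3 by 0.88 in TC32 with no call in TC71 (-0.12). Of the BCL2 family and apoptosis list, 4 of 22 were positive and 0 negative, and 4 and 4 with quantile normalization run again. MCL1, a short-lived survival factor, rose from 9.49, 9.47 and 9.51 to 10.12, 10.05 and 10.05 in TC71 and overlapped in TC32 between 9.83 and 10.00. Its other 2 called sets had another shape with the same direction of difference, with effects of -0.79 and -0.99 in TC32 and -0.07 and -0.23 in TC71. CFLAR, which blocks death receptor signalling to caspases, fell by 1.07 and 0.43 (difference 0.64, and 0.21 and not called with the mean of its probe sets), and BCL2L2 fell by 1.51 and 0.58 at its brightest set, its other set being below the array medians.

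**Figure D4:**
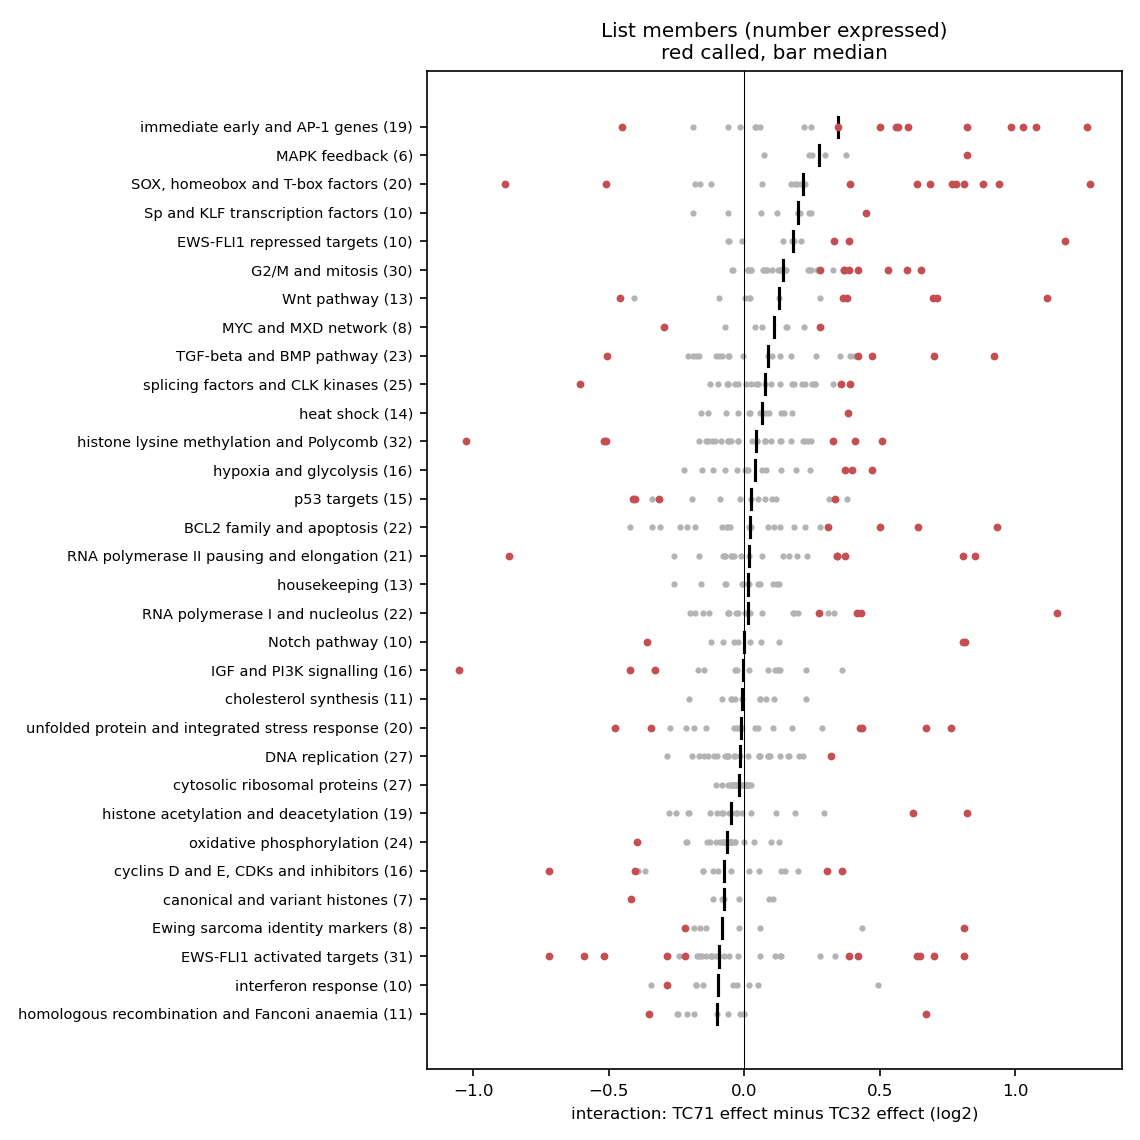
Line difference (x, log2) of every expressed member of 32 gene lists, ordered by the median (black bars), with called members in red and the number expressed in parentheses. Immediate early genes have the highest median at 0.35 and many called members at the right, whereas cytosolic ribosomal proteins and housekeeping genes lie close to 0 with no called member.

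Several lists and familiar drug targets had few or no called differences. Of 27 expressed cytosolic ribosomal protein genes 0 were called, with a median of -0.02, and the same held for 11 cholesterol synthesis genes (-0.01) and 13 housekeeping genes (0.02) under limma, while 0, 1 and 2 members of these 3 lists had an unadjusted p under 0.05. Oxidative phosphorylation had 1 negative call in 24, the complex I gene NDUFB5, and the interferon response 1 in 10, ISG15, which lost its call in 11 of the 12 fits without 1 array. MYC went from 10.06, 10.05 and 10.04 to 9.20, 9.22 and 9.19 in TC32 and from 11.25, 11.37 and 11.43 to 10.79, 10.72 and 10.68 in TC71, and the difference of 0.22 ± 0.08 was not called (limma adjusted p = 0.112). VEGFA, which drives the growth of blood vessels, fell by 0.95 ± 0.07 and 0.70 ± 0.07 (difference 0.24 ± 0.10, limma adjusted p = 0.154). SP1, the GC-box factor, fell by 0.49 ± 0.06 and 0.28 ± 0.06 (0.20 ± 0.09, limma adjusted p = 0.189), and MDM2, the ubiquitin ligase of p53, had a difference of 0.38 ± 0.13 (limma adjusted p = 0.0894). CD99, the surface antigen by which Ewing sarcoma is diagnosed, overlapped in each line, with a difference of -0.02 ± 0.08 (limma adjusted p = 0.93). A p above the threshold does not show that the lines responded alike, and the standard errors bound what these arrays could resolve.

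Each of the 28 genes named for the size or opposition of their effects kept its call in every fit that left out 1 array. All 12 genes named for negative differences had other probe sets, and in 7 of them another set was called in the same direction. Among the 12 named for positive differences 6 had other sets, of which 2 had another set called. No other set was called in the opposite direction, and several of the other sets were near or below the array medians, where a difference could not be read. The limit of 6 on the control mean cut close to CTC1 (lower control mean 6.00, difference 0.36) and PABPC4L (6.01, 1.21) on its inner side and to BCDIN3D (5.99, 0.36) and RFX3 (5.99, -0.44) on its outer side.

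**Figure D5:**
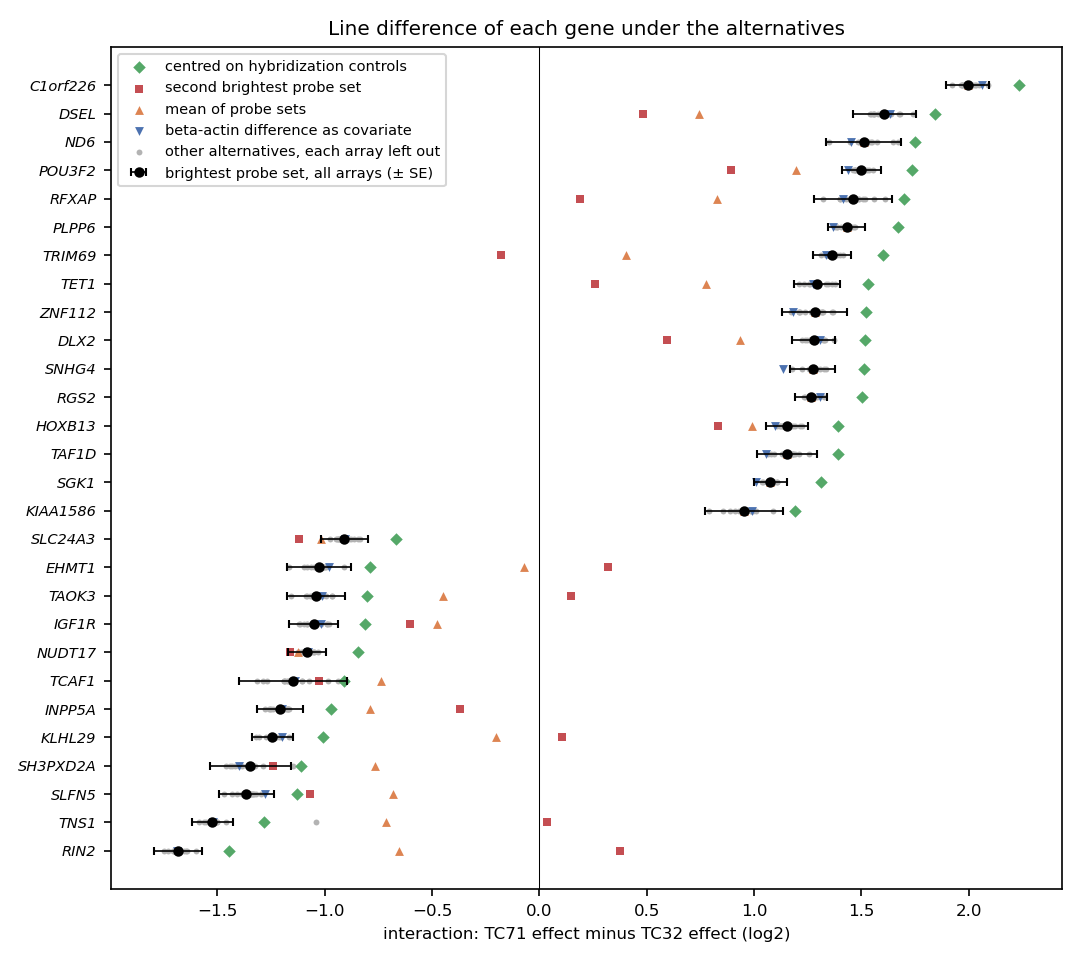
Line difference (x, log2) of the 28 named genes with the brightest probe set and all arrays (black, ± SE) and under the alternatives. Centring on hybridization controls shifts every gene to the right by 0.24, and the second brightest probe set of RIN2, TNS1, KLHL29, TAOK3, EHMT1 and TRIM69 lies on the other side of 0, that of RIN2 being below the array medians.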

How the data were processed

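RNA of 12 cultures was measured on 1-colour oligonucleotide arrays. The authors deposited log2 values for every probe set on every array, summarized with RMA per the submitters' processing notes, with a version not given in the sources used here. The method sets probe signals to 1 distribution across arrays before summarizing them, so a shift shared by most genes is largely removed. Every effect is therefore relative to the other genes. The deposited probe set values still differed in spread, with interquartile ranges from 3.07 to 3.42 over the arrays. The values had 0 missing cells, and no scan dates or detection calls were used.

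Of 54675 probe sets, 41091 had 1 gene symbol, 1801 several and 11721 none, and 62 were controls. Symbols were updated through Entrez identifiers with a RefSeq table (GRCh38.p14), which matched 41037 sets. Genes on the Y chromosome only and the X inactivation transcripts were left out. Each of 19740 genes was its set with the highest mean, and 10511 had several sets.

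All 12 arrays entered 1 model with a mean per group in limma 3.58.1 (R 4.3.3), tested on simulated data first. Adjusted p-values are two-sided, by Benjamini-Hochberg over all genes of a contrast, called under 0.05. Calls at the other probe sets of a gene came from a separate fit over all sets with 1 symbol, adjusted over those sets. They are not on the scale of the main calls. The brightest sets of COL3A1, ISG15 and STEAP1, for example, were called in the main fit and not in that one. Errors are standard errors of the model. The genes named were the 12 with the most negative and the 12 with the most positive difference, the 6 of opposite effect with the largest smaller effect, up to 3 called members per list, and genes of prior interest. Further list members, the families and genes outside the limit were named after their values were seen. The members and the 37 lists were chosen with earlier results of these data known. Alternatives covered scaling, probe set choice, the moderation, array weights, a replicate block, the beta-actin difference, the limit on level and leaving out each array. The promoter of 1 further gene is not reported here.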

Additional observations from a re-analysis of the deposited data

Results flagged for a closer look

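The effect of mithramycin differed between the lines by a direct limma test for 1126 expressed genes, and by at least 2-fold for 53. The following genes stood out among them, and their values are the TC71 effect minus the TC32 effect on the log2 scale. The most negative were RIN2 at -1.68, TNS1 at -1.52, SLFN5 at -1.37, SH3PXD2A at -1.35, KLHL29 at -1.24 and INPP5A at -1.21. TCAF1 at -1.15, NUDT17 at -1.08, IGF1R at -1.05, TAOK3 at -1.04, EHMT1 at -1.03 and SLC24A3 at -0.91 followed. The most positive were C1orf226 at 2.0, DSEL at 1.61, ND6 at 1.51, POU3F2 at 1.50, RFXAP at 1.46 and PLPP6 at 1.43. Next came TRIM69 at 1.36, TET1 at 1.29, ZNF112 at 1.28, DLX2 at 1.28, SNHG4 at 1.27 and RGS2 at 1.26. Genes that fell in TC32 and rose in TC71 also included TAF1D at 1.15, HOXB13 at 1.15, SGK1 at 1.08 and KIAA1586 at 0.95. With 3 arrays per group, single arrays were not tested as outliers.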

How the results depend on the processing

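The counts of called differences kept within 1.5 times of 1973 over all genes, 1126 over expressed genes and 53 at 2-fold under renewed quantile normalization, centring on medians or housekeeping genes, a trend in the moderation, array weights, the replicate block and the sets without _x_at and _s_at. Centring on hybridization controls gave 112 differences of at least 2-fold and 5663 calls in TC32 (8890 as deposited). The mean of a gene's probe sets gave 695 expressed calls and 26 of at least 2-fold. The second brightest set, which exists for fewer genes, gave 790, 313 and 13, with 4149 calls in TC32 and 3386 in TC71 (7016 at the brightest set). The beta-actin covariate gave 1204 and 635, with 4617 in TC71, and a limit of 7 on the control mean gave 29 of at least 2-fold. Leaving out 1 array gave 1476 to 2124 over all genes, 807 to 1169 expressed, 50 to 55 at 2-fold, 7710 to 9219 in TC32 and 5823 to 7511 in TC71. Same-numbered replicates deviated together at correlations of -0.226 to 0.384 and 19 of 36 best matches were to the own number. All 3 pairs passed 0.1 between the control groups (0.152 to 0.252) but in no other pair of groups, so the numbers were not taken as pairs. With the replicate block 1829 genes were called, 1019 of them expressed, and COL3A1, CDT1, MXD3, ISG15, STEAP1 and ATP6 were no longer called.

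The sign changed at the second brightest set for RIN2 (0.37), TNS1 (0.035), KLHL29 (0.10), TAOK3 (0.15), EHMT1 (0.32), TRIM69 (-0.18), BCL2L2 (-0.074) and POLR1B (-0.079). Without the _x_at and _s_at sets it changed for TAOK3 (0.15), MLX (-0.0030) and HEXIM1 (0.080), with the mean of sets for PAPPA (0.15) and with hybridization centring for STEAP1 (0.021). The cause was not tested. The sets behind the values of RIN2, BCL2L2 and HEXIM1 were below the array medians in both controls. Of the 117 genes with values, the call ended for 22 at the second brightest set, which fewer genes have, 20 with the beta-actin covariate, 19 with hybridization centring, 12 with the mean of sets, 9 without the _x_at and _s_at sets, 8 with median centring and 6 with the block. No depth exists for arrays, and signal over background was not used here, so falls that end below the array medians are rough.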

Other observations

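The following groups were chosen after their values were seen. Over all expressed genes 10.1% were called positive and 4.45% negative, with a median of -0.01. Host genes of small nucleolar RNAs, long non-coding transcripts whose introns hold those RNAs and whose spliced remainder decays quickly, shared a direction. Of 5 expressed members 4 were called positive and 0 negative, with a median line difference of 0.59. SNHG19 stood at 9.54, 9.32 and 9.50 in TC32 controls and at 8.48, 8.48 and 8.38 with mithramycin, and at 10.11, 9.98 and 10.06 against 10.28, 10.29 and 10.28 in TC71. It fell in TC32 by 1.01 ± 0.06 and rose in TC71 by 0.23 ± 0.06, as SNHG4 did. GAS5, the growth arrest transcript, fell from 6.70, 6.47 and 6.56 to 6.33, 6.2 and 5.96 in TC32 and had no called change in TC71 (0.18), and SNHG32 fell by 0.67 and 0.33. GAS5 lost its call with the beta-actin covariate, where 3 of the 5 were called.

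Genes of the mitochondrial genome, which is transcribed from both strands as long precursors, did not share a direction. ND6, the protein gene of the light strand, was the 1 positive call at 1.51 ± 0.17, and 4 of the other 6 measured were called negative. ND6 was read by 1 probe set, so a difference between strands cannot be told apart from a difference of ND6 alone. ND2 went from 12.86, 12.70 and 12.81 to 11.54, 11.32 and 11.43 in TC32 and from 12.84, 12.78 and 12.73 to 10.74, 10.78 and 10.77 in TC71. The controls of both lines were level and the treated TC71 arrays fell further, a difference of -0.66 ± 0.09. COX3 (-0.81), ND4 (-0.53) and ATP6 (-0.35) went the same way, ATP6 losing its call in 10 of the 12 fits without 1 array, while COX1 (-0.24) and COX2 (-0.11) were not called. Sequences like these also occur as copies in the nuclear genome, and reads of them by these probes cannot be told apart.

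Of 6 expressed HOXD genes 5 were called positive and 0 negative (median 0.54), led by HOXD4, which fell from 7.37, 7.06 and 7.24 to 6.11, 5.67 and 5.93 in TC32 and had no called change in TC71 (-0.26). Among 168 expressed genes whose symbols begin with ZNF, most of them zinc finger transcription factors, 46 were called positive and 4 negative. Their median was 0.17. The counts were 29 and 3 with the beta-actin covariate and 43 and 8 with quantile normalization run again. With hybridization centring they were 73 and 0.

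The limit on the control mean left out genes with larger differences that were near background in 1 untreated line or both. MAML2, a coactivator of Notch, differed by 3.38 ± 0.17, with 7.29, 7.36 and 7.05 against 3.72, 4.16 and 4.04 in TC32. Its TC71 arrays lay between 2.41 and 2.78 in all, where no fall could be seen. CCN2, a matricellular gene related to CCN1, fell from 11.04, 11.08 and 11.01 to 10.21, 10.25 and 10.32 in TC32 and rose from 4.74, 4.92 and 4.76 to 6.65, 6.55 and 6.4 in TC71. Its difference of 2.51 ± 0.10 thus joined opposite changes on very different levels. In the other direction, TANC2 was at a mean of 4.29 in untreated TC32 and 4.18 with the drug and went from 7.31 to 4.99 in TC71, a difference of -2.21. LINC00545, low in both untreated lines, went from 3.44 to 5.53 in TC32 and from 3.02 to 2.92 in TC71, a difference of -2.19.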
